A study of Homo sapiens with 8 samples.

Results

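The protocadherin genes were followed in SH-SY5Y cells, an established human neuroblastoma line, by RNA sequencing of polyadenylated RNA. Members were chosen by symbol alone, as every entry of the gene table holding a symbol that begins with PCDH, followed by A, B or G of the clustered families or by a number, with pseudogenes left out. The rule found 30 of the 47591 entries, and these hold 65 gene names. The 15 alpha genes share 1 entry and the 22 gamma genes share another, whereas each of the 16 beta genes and each of the 12 non-clustered genes has its own.

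The study compared 3 lines by 8 libraries. G2 (3 libraries) carried CRISPR/Cas9 editing with a guide against PRPF40B, which encodes a splicing factor. SCR (3 libraries) received a scrambled guide, and WT (2 libraries) was not edited. Edited cells were selected with puromycin, raised as colonies by limiting dilution and kept in puromycin, and all lines grew in DMEM with serum. A difference between G2 and a control line therefore cannot be told apart from a difference between colonies, and the 2 WT libraries were not under the drug. The labels call the libraries biological replicates without saying whether they came from separate cultures, so p-values measure the spread between these libraries, which may be technical.

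Protocadherins are cadherin-type adhesion molecules of the cell surface that are prominent in the nervous system. In the clustered families on chromosome 5, each variable exon or gene has its own promoter, and single neurons use different sets of promoters, which gives each neuron a surface identity used in self-avoidance. The architecture differs between the families: alpha and gamma variable exons are spliced to constant exons shared by their cluster, while each beta gene is a single-exon gene that encodes a whole protein. Non-clustered protocadherins lie alone in the genome, and most of those measured here belong to the delta group, whose members act in neurite outgrowth, cell sorting and synapse formation.

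The promoters of the clustered genes carry a conserved element with the core CGCT, near which the insulator protein CTCF and cohesin act. To show what the beta genes share, the most common word of 9 bases was picked from their own listed promoters. It was then searched on both strands in all RefSeq promoters (GRCh38.p14, 250 bases before to 50 after the start site). Its count in the beta promoters is therefore high by choice and is no test of enrichment. The word GGTGGCGCT was found in 13 of the 14 listed beta promoters and in 0.524% of all 27305 promoters. PCDHB1 lacked it, and PCDHB6 and PCDHB11 were not listed. It began 2 to 84 bases before the start site, with a median of 66. Below are 30 bases around it, 5′ to 3′ on the plus strand of chromosome 5, with the word in capitals, for genes that rose in both G2/SCR and G2/WT (PCDHB16, PCDHB14, PCDHB15) and for genes not called in G2/SCR (PCDHB8, PCDHB9, PCDHB10), of which PCDHB9 and PCDHB10 rose in G2/WT.
PCDHB16 (chr5:141182309-141182338): gtgagaacgcgtGGTGGCGCTgcaggttaa
PCDHB14 (chr5:141223262-141223291): atggagacacatGGTGGCGCTacaggataa
PCDHB15 (chr5:141245313-141245342): aagacaacgcatGGTGGCGCTgcaggctaa
PCDHB8 (chr5:141177776-141177805): gtgaggacccgtGGTGGCGCTgcaggataa
PCDHB9 (chr5:141187073-141187102): tggaagccacaaGGTGGCGCTgcagactga
PCDHB10 (chr5:141192298-141192327): tggaggccacacGGTGGCGCTgcaggctaa
Only promoters that hold the word are shown, and these genes were picked from the 13 with their calls known. PCDHB2, PCDHB3, PCDHB4, PCDHB5, PCDHB7, PCDHB12 and PCDHB13 were also not called in G2/SCR and are not shown. All of these hold acgc shortly before the word, as do PCDHB16 and PCDHB15. The bases acgc before the word were therefore present both in genes called in G2/SCR and in genes not called. Whether other bases of the windows differ between these genes was not tested. The commonest words of the other clusters were picked in the same way, each from the promoters of its own cluster. They were GATGTCGCT, in 9 of 13 listed alpha promoters and 0.103% of all promoters, and GCGCCGCTG, in 10 of 20 listed gamma promoters and 1.25% of all. Neither of these occurred in a listed beta promoter, and none of the 3 words occurred in the 10 listed non-clustered promoters.

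Values are normalized read counts, that is counts divided by a size factor for each library, with no correction for gene length. Whole counts recovered from the table summed to between 59804395 and 81080747 per library. PRPF40B, the targeted gene, was at 840, 841 and 918 normalized counts in G2, at 1686, 1672 and 1669 in SCR, and at 1972 and 1668 in WT. Ribosomal RNA entries held 4.96% and 4.75% of normalized counts in the WT libraries, which stood apart in this, and 0.384 to 0.587% in the others. Of the adrenergic markers of neuroblastoma, 7 of 9 fell in each G2 comparison, where 11.8% (G2/SCR) and 12.2% (G2/WT) of all tested entries fell. Their summed level was 94893 to 104987 in G2, 167992 to 179891 in SCR and 181907 to 190987 in WT. Mesenchymal markers went the other way, with 5 of 6 higher in both comparisons (15.1% and 17.7% of all tested entries were higher). Their sums were 277766 to 282661 in G2, 113641 to 121033 in SCR and 80721 to 92843 in WT. The defining markers SOX10 of glia, PECAM1 of endothelium and CD3E of T cells were at 0 in every library, but other members of their lists were not. Sums of the glial list were 145 to 230 in G2, 374 to 584 in SCR and 425 to 440 in WT. Those of the endothelial list were 27.9 to 80.9, 14.1 to 40.8 and 3.72 to 41.7. The immune list, which holds CD68, summed to 666 to 735, 61.0 to 70.4 and 73.3 to 121. In bulk RNA, more cells of a kind and more RNA per cell cannot be told apart, and the part of these marker shifts in the protocadherin values was not tested.

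Of the 30 entries, 26 had a mean of at least 10 normalized counts and were tested, together with all other such entries (18947), by limma on log2(value + 1). The threshold for a call was 1.5-fold with an unadjusted p no higher than 0.05. In G2/SCR, 12 of the 26 were called, 11 higher and 1 lower, where 26.9% of all tested entries were called (15.1% higher and 11.8% lower). In G2/WT, 19 of the 26 were called, 18 higher and 1 lower, beside 29.9% of all entries (17.7% higher and 12.2% lower). Between the controls, SCR/WT gave 7 calls, 5 higher and 2 lower, beside 16.3% of all entries (10.7% higher and 5.63% lower). After Benjamini-Hochberg adjustment in limma the counts were 12, 18 and 6, where the shares of all entries were 25.0%, 28.2% and 13.8%. Both G2 comparisons use the same G2 libraries and are not independent of each other. In both of them 11 entries were higher (4 beta and 7 non-clustered; 11.3% of all entries), and 1, PCDH1, was lower (6.43% of all entries). Of these 11, 7 were not called in SCR/WT (8.13% of all entries), as were 1541 of the 2134 entries of the whole table that were higher in both (72.2%).

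The clustered families did not move together. The alpha entry (GSHG0034781, chr5:140786136-141012347 in hg38) held 5392, 5468 and 5473 normalized counts in G2, 5473, 5646 and 5253 in SCR, and 4615 and 5325 in WT. The G2 values lay inside the SCR range, and the G2/SCR difference was -0.00 on the log2 scale (95% interval -0.14 to 0.13). G2/WT gave 0.14 (SE 0.07, limma Benjamini-Hochberg adjusted p = 0.12). Because this entry sums 15 first exons and the shared constant exons, a switch from one alpha promoter to another within it would not be seen.

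The gamma entry (GSHG0034803, chr5:141330514-141512979) was at 19697, 20807 and 20502 in G2, at 17006, 16525 and 15594 in SCR and at 16051 and 16052 in WT. All 3 G2 libraries were above all 5 control libraries, but the means differed by only 1.24-fold from SCR and 1.27-fold from WT, under the fold threshold. On the log2 scale the differences were 0.31 (SE 0.05) and 0.34 (SE 0.06), with limma Benjamini-Hochberg adjusted p of 0.00025 and 0.00029. SCR/WT was 0.03 (SE 0.06). Again, 22 genes are summed in this value.

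The beta genes, which encode homophilic adhesion proteins of the same design, differed from one another. Of 16, 15 passed the filter and 4 rose in G2/SCR while none fell, where 26.9% of all tested entries were called and 15.1% were higher, so the share called was near that over all entries. Their median log2 difference was 0.29 beside -0.01 over all tested entries. At the unadjusted p with any fold, limma gave 8 higher and 1 lower, with no share over all entries to set beside them. In G2/WT 10 rose (17.7% of all entries) and none fell, with a median of 0.72 beside 0.00. SCR/WT had 2 higher and 1 lower (16.3% of all entries were called), with a median of 0.21 beside 0.01. The summed beta level was 25874 ± 1120 normalized counts in G2 (SD, n = 3), 16101 ± 646 in SCR (n = 3) and 13076 ± 683 in WT (n = 2), ratios of 1.61 and 1.98 for G2 over SCR and WT.

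**Figure D1:**
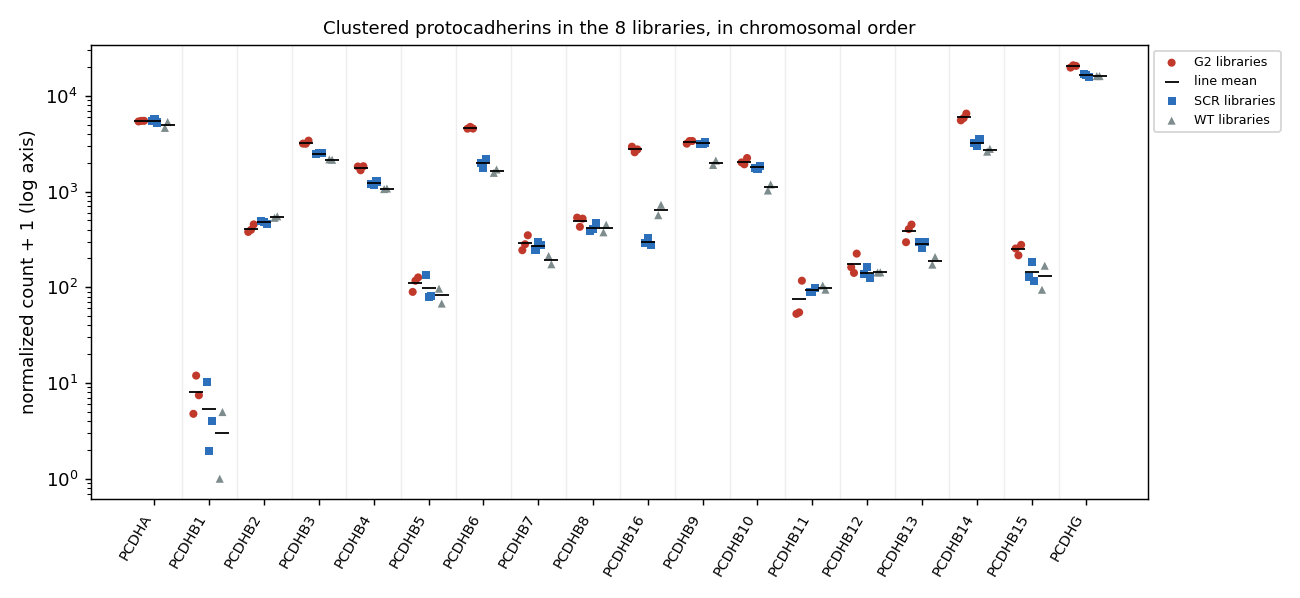
Normalized read counts plus 1 (log10 axis) of the alpha and gamma entries and of the beta genes in each library, 1 point per library coloured by line, with a bar at each line's mean. The alpha points of the 3 lines overlap, whereas the G2 points of PCDHB16 (2568 to 2937) lie far above those of SCR (277 to 322) and WT (565 to 725).

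PCDHB16 (GSHG0034791, chr5:141181399-141186399, plus strand) had the widest difference among the beta genes. Its normalized counts were 2937, 2568 and 2753 in G2, 287, 322 and 277 in SCR, and 565 and 725 in WT. The 3 lines did not overlap, and the controls also differed from each other, SCR being the lowest. The G2 mean was 9.32-fold that of SCR and 4.27-fold that of WT. The log2 differences were 3.22 (SE 0.10, limma Benjamini-Hochberg adjusted p = 2.4e-10) for G2/SCR, 2.10 (SE 0.12, adjusted p = 2.8e-08) for G2/WT and -1.12 (SE 0.12, adjusted p = 2.6e-05) for SCR/WT. PCDHB16 thus made up 10.7 ± 0.88% of the summed beta level in G2 (SD, n = 3), 1.84 ± 0.215% in SCR and 4.92 ± 0.607% in WT. With PCDHB16 taken out, the summed beta level of G2 was still 1.46 times that of SCR and 1.86 times that of WT.

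The beta gene just before it, PCDHB8 (chr5:141177790-141180539), had 533, 427 and 520 normalized counts in G2, 386, 405 and 464 in SCR, and 374 and 449 in WT, with all 3 lines overlapping. It is given here because of its place beside PCDHB16, chosen after its values were seen. Its G2/SCR difference was 0.23 (95% interval -0.03 to 0.50).

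PCDHB6 (chr5:141150057-141153287) was at 4530, 4731 and 4541 in G2, at 1973, 1782 and 2164 in SCR and at 1564 and 1696 in WT. The G2 level was 2.33-fold that of SCR and 2.82-fold that of WT, and the controls did not overlap G2. In G2/SCR this was a log2 difference of 1.23 (SE 0.07, limma Benjamini-Hochberg adjusted p = 5.9e-08), and in G2/WT the adjusted p was 2.9e-08. PCDHB14 (chr5:141222932-141227759) had 5536, 5841 and 6513 in G2, 3201, 2955 and 3555 in SCR and 2605 and 2787 in WT, again without overlap. It rose by 0.88 (SE 0.08, limma Benjamini-Hochberg adjusted p = 2e-06) over SCR and by 1.14 (SE 0.09, adjusted p = 6.1e-07) over WT. PCDHB15 (chr5:141245348-141249365), a low member, had 253, 215 and 276 in G2, 128, 181 and 116 in SCR, and 93.1 and 167 in WT. Its differences were 0.82 (SE 0.22, limma Benjamini-Hochberg adjusted p = 0.0094) and 0.98 (SE 0.25, adjusted p = 0.006). Without WT replicate 1 the G2/WT difference of PCDHB15 was 0.56 and no longer called.

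A further 6 beta genes rose in G2/WT but were not called in G2/SCR, and these were of more than one pattern. In PCDHB9 the SCR libraries sat with G2: 3159, 3365 and 3370 in G2, 3157, 3120 and 3251 in SCR, and 1894 and 2104 in WT. Its G2/SCR difference was 0.05 (SE 0.06), and both G2/WT (0.72) and SCR/WT (0.67) were called higher. PCDHB10 had 2013, 1922 and 2237 in G2, 1768, 1732 and 1866 in SCR and 1023 and 1184 in WT, so G2 lay above SCR without overlap. Its G2/SCR difference was 0.20 (SE 0.08, limma Benjamini-Hochberg adjusted p = 0.056), under the fold threshold. Both edited lines were thus above WT for this pair of adjacent genes, with SCR/WT of 0.70 for PCDHB10 (SE 0.09, limma Benjamini-Hochberg adjusted p = 0.00011).

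For PCDHB3 and PCDHB4 the lines were ordered G2, SCR, WT without overlap. PCDHB3 was at 3164, 3154 and 3396 in G2, 2468, 2499 and 2502 in SCR, and 2163 and 2142 in WT. Its log2 difference was 0.38 (SE 0.06, limma Benjamini-Hochberg adjusted p = 0.00015) from SCR, under the fold threshold, and 0.59 (adjusted p = 9.2e-06) from WT. PCDHB4 held 1824, 1667 and 1838 in G2, 1208, 1163 and 1272 in SCR, and 1059 and 1073 in WT. The corresponding values were 0.55 (SE 0.07) from SCR, also just under the threshold, and 0.73 (SE 0.08) from WT. PCDHB13 was at 295, 404 and 450 in G2, 299, 253 and 295 in SCR, and 171 and 206 in WT, so that 1 G2 library overlapped SCR. It differed by 0.42 (SE 0.16) from SCR and by 1.00 (SE 0.18) from WT. PCDHB7, at 243, 280 and 348 in G2, 245, 297 and 274 in SCR and 211 and 173 in WT, had G2 and SCR values intermixed. The difference of PCDHB7 from WT was 0.59 (SE 0.17, limma Benjamini-Hochberg adjusted p = 0.011), and without WT replicate 2 neither PCDHB7 nor PCDHB3 was called in G2/WT.

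Among the beta genes not called in either G2 comparison, PCDHB2 lay on the other side of the controls. It was at 377, 396 and 452 in G2, 496, 484 and 456 in SCR and 530 and 549 in WT, so every G2 library was below every control. The log2 differences were -0.23 (SE 0.10, limma Benjamini-Hochberg adjusted p = 0.065) from SCR and -0.40 (SE 0.11, adjusted p = 0.0073) from WT, both under the fold threshold. PCDHB5, PCDHB11 and PCDHB12 had 51.8 to 224 normalized counts per library, with lines that overlapped. PCDHB1, the outlying gene that lacked the promoter word, had at most 10.9 normalized counts and was not tested.

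The make-up of the beta sum followed from these values. PCDHB14 held 23.0% in G2, 20.1% in SCR and 20.6% in WT. PCDHB6 held 17.8% in G2 against 12.2% and 12.5% in the controls. PCDHB9 held 12.8% in G2, 19.7% in SCR and 15.3% in WT, and PCDHB2 held 1.58%, 2.98% and 4.13%. Shares are of counts not scaled to length, so they compare lines and not genes.

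**Figure D2:**
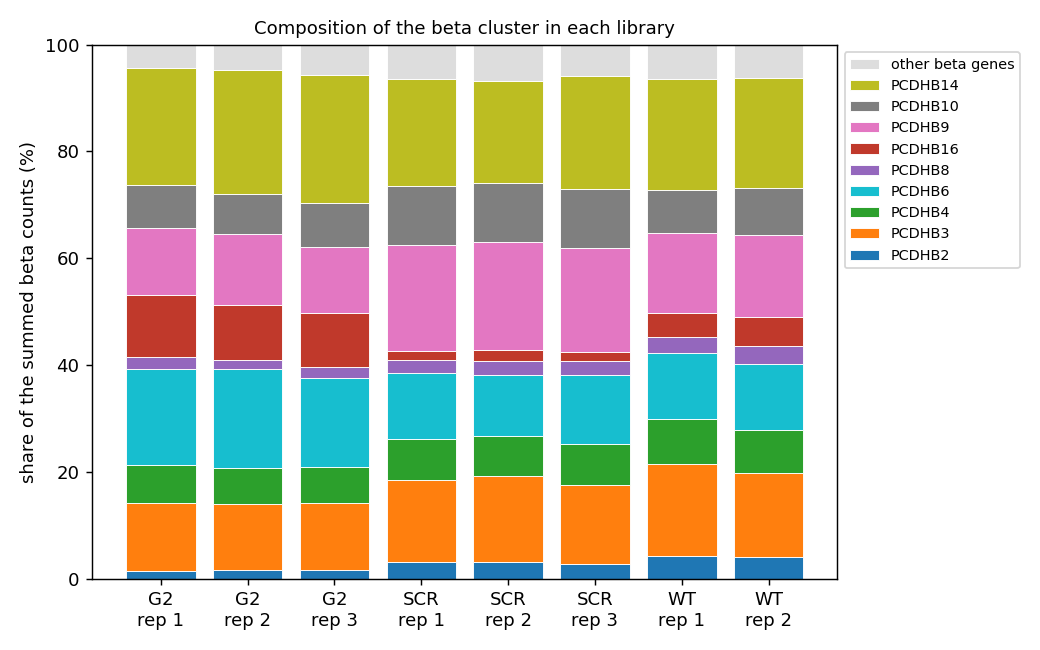
Share of the summed beta level (percent) taken by 9 beta genes and by the others together in each of the 8 libraries, stacked to 100%. PCDHB16 takes 10.1 to 11.7% in the G2 libraries and 1.65 to 5.35% in the control libraries.

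Reads from near-identical stretches of beta genes could be lost or assigned to the wrong gene. Among the 15 beta genes tested, 5.16 to 34.5% of windows of 75 bases, the read length, matched another protocadherin transcript exactly. This share was 11% for PCDHB16, 9.69% for PCDHB6, 7.93% for PCDHB14 and 7.56% for PCDHB15, while PCDHB8 (34.5%) and PCDHB10 (29.0%) were the most affected. How the authors' counting treated such reads is not given in the sources used here.

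The non-clustered genes differed between the lines by more. Of 12, 9 passed the filter. In G2/SCR 7 rose and 1 fell (15.1% and 11.8% of all tested entries), with a median log2 difference of 2.18 beside -0.01 over all. In G2/WT 8 rose and 1 fell (17.7% and 12.2%), with a median of 2.71 beside 0.00. That median is the value of PCDH8 (SE 1.15), a low and scattered gene that was called higher at the unadjusted p alone. SCR/WT had 3 higher and 1 lower (10.7% and 5.63%), with a median of 0.41 beside 0.01. Their summed level was 17360 ± 384 normalized counts in G2 (SD, n = 3), 4924 ± 63.1 in SCR (n = 3) and 2929 ± 305 in WT (n = 2). No other protocadherin shared a 75-base window with the 9 genes tested.

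**Figure D3:**
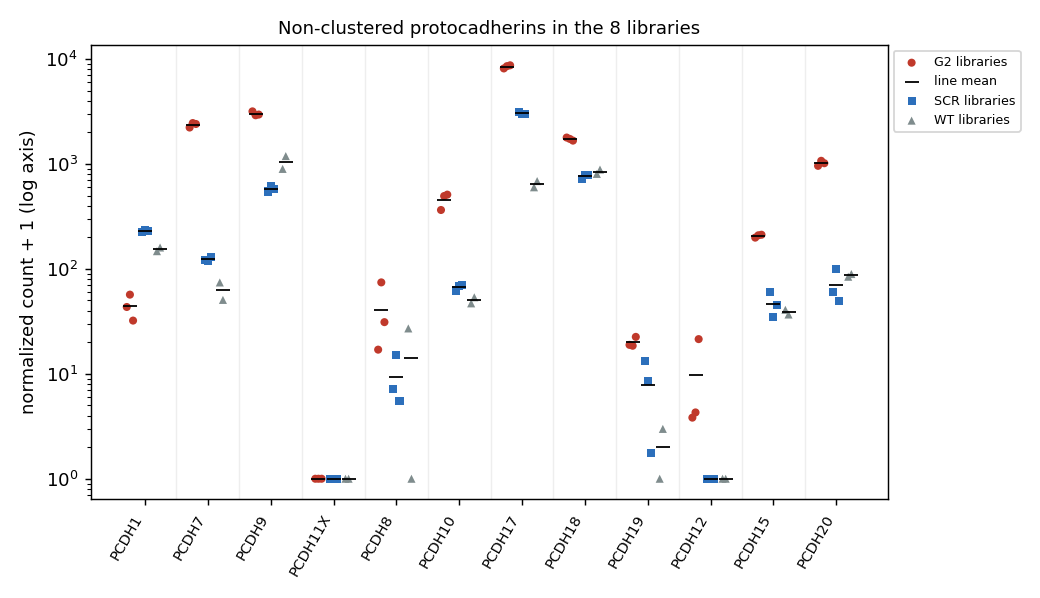
Normalized read counts plus 1 (log10 axis) of the non-clustered protocadherins in each library, 1 point per library coloured by line, with a bar at each line's mean. PCDH7, PCDH10, PCDH15 and PCDH20 have G2 points far above both control lines, PCDH17 rises from WT to SCR to G2, and PCDH1 is lowest in G2.

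Delta-1 protocadherins have a long extracellular part and a conserved cytoplasmic motif that binds a protein phosphatase. PCDH7 (GSHG0032521, chr4:30720369-31146800) was at 2224, 2454 and 2404 normalized counts in G2, at 121, 118 and 130 in SCR and at 73.3 and 49.6 in WT. The G2 mean was 19.2-fold that of SCR and 38.4-fold that of WT, the widest differences of all the members tested, and SCR was itself 2.01-fold above WT. On the log2 scale the differences were 4.25 (SE 0.14, limma Benjamini-Hochberg adjusted p = 2.4e-10), 5.27 (SE 0.15, adjusted p = 1.1e-10) and 1.02 (SE 0.15, adjusted p = 0.00035).

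PCDH9 (chr13:66302834-67230445), another delta-1 gene, had 3171, 2912 and 2957 in G2, 546, 620 and 580 in SCR and 896 and 1187 in WT. G2 lay 5.18-fold above SCR and 2.89-fold above WT, while SCR lay below WT without overlap. The differences were 2.37 (SE 0.10, limma Benjamini-Hochberg adjusted p = 2.2e-09), 1.54 (SE 0.11, adjusted p = 3e-07) and -0.83 (SE 0.11, adjusted p = 0.00017). With all libraries scaled to the same total, SCR/WT for PCDH9 was -0.55 and not called.

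PCDH1 (GSHG0035854, chr5:141853090-141878410, minus strand), a delta-1 member also found in airway epithelium, was the only protocadherin called lower in the G2 comparisons. Its normalized counts were 42.3, 55.8 and 31.2 in G2, 226, 236 and 230 in SCR and 147 and 159 in WT. SCR was 5.34-fold and WT 3.54-fold above G2, with no overlap between any lines. The log2 differences were -2.43 (SE 0.20, limma Benjamini-Hochberg adjusted p = 9.1e-07) from SCR and -1.84 (SE 0.22, adjusted p = 2.7e-05) from WT. SCR/WT was 0.59 (SE 0.22), called at the unadjusted p of 0.022 but with an adjusted p of 0.06 in limma. PCDH1 lies on the same chromosome arm as the clusters, past the gamma entry.

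Delta-2 protocadherins have fewer cadherin repeats, and several of them bind the WAVE complex that drives actin assembly. PCDH17 (chr13:57631744-57729311) had the highest level per length of the non-clustered genes in G2 and SCR, with 8138, 8558 and 8717 normalized counts in G2, 3129, 2988 and 2965 in SCR and 598 and 686 in WT. The lines were separate at every step, G2 being 2.80-fold above SCR and SCR 4.71-fold above WT. G2/SCR was 1.48 (SE 0.07, limma Benjamini-Hochberg adjusted p = 3.3e-09) and SCR/WT was 2.24 (SE 0.07, adjusted p = 3.5e-09), so that more of the distance between G2 and WT (3.72) lay between the controls.

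PCDH10 (chr4:133149294-133194700) was at 363, 494 and 509 in G2, at 61.2, 67.6 and 68.8 in SCR and at 45.9 and 52.6 in WT. Its G2 mean was 6.92 times the SCR mean and 9.24 times the WT mean, or 2.76 (SE 0.17, limma Benjamini-Hochberg adjusted p = 6.1e-08) and 3.17 (SE 0.19, adjusted p = 5.2e-08) in log2 terms. The controls differed by 0.41 (SE 0.19) and were not called. PCDH18 (chr4:137518918-137532499) had 1785, 1732 and 1669 in G2, 722, 792 and 783 in SCR and 803 and 884 in WT. Its G2 mean was 2.26-fold that of SCR and 2.05-fold that of WT, with control lines close to each other (-0.14, SE 0.08).

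PCDH8 (chr13:52842889-52848640), whose rat counterpart is induced by neuronal activity, was low and scattered. It had 16, 73.4 and 30.1 normalized counts in G2, 6.12, 14.1 and 4.53 in SCR and 26.1 and 0 in WT. G2/WT (2.71, SE 1.15) was called only at the unadjusted p of 0.037, with a limma adjusted p of 0.067, and was 0.33 without WT replicate 2. PCDH19, the X-linked delta-2 gene of an infantile epilepsy, missed the filter with a mean of 9.92 normalized counts. It had 17.9, 17.5 and 21.5 in G2, 12.2, 7.51 and 0.756 in SCR, and 0 and 1.99 in WT.

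PCDH20 (chr13:61409685-61415524) had 959, 1071 and 1015 normalized counts in G2, 59.2, 98.5 and 48.4 in SCR and 83.2 and 88.4 in WT. The controls overlapped each other, and G2 was 14.8-fold above SCR and 11.8-fold above WT. Its log2 differences were 3.93 (SE 0.21, limma Benjamini-Hochberg adjusted p = 1.9e-08) and 3.55 (SE 0.24, adjusted p = 1.4e-07). PCDH15 (chr10:53802771-55627942) encodes a tip-link protein of inner-ear hair cells and is mutated in Usher syndrome. It was at 198, 208 and 211 in G2, 59.2, 33.8 and 43.8 in SCR and 39.7 and 35.7 in WT, 4.50-fold and 5.44-fold lower in SCR and WT than in G2. PCDH12, an endothelial member, had 2.82, 3.28 and 20.4 in G2 and 0 in all 5 controls, and PCDH11X, which has a near-identical copy on the Y chromosome, was listed at 0 throughout.

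**Figure D4:**
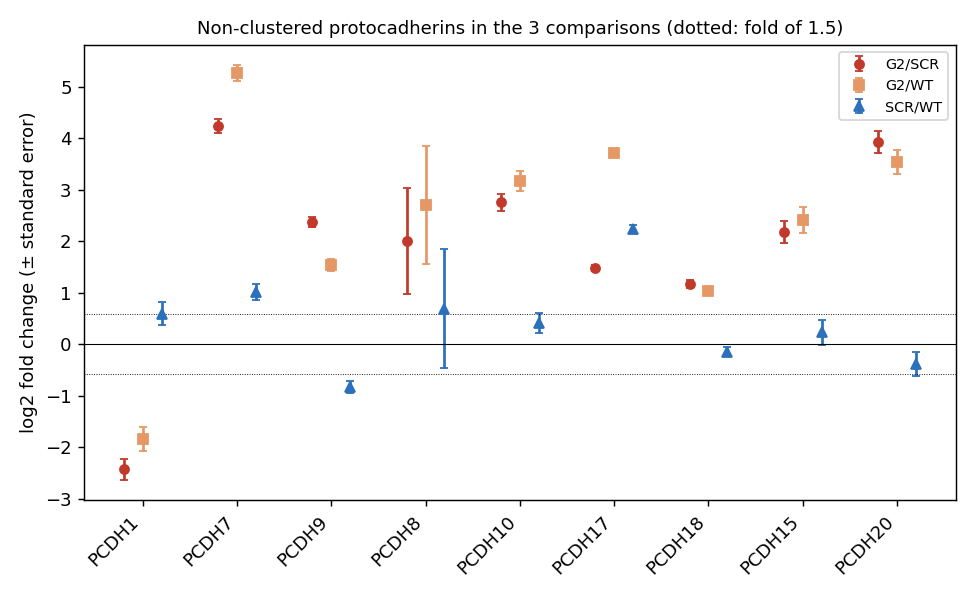
Log2 fold changes of the non-clustered protocadherins in G2/SCR, G2/WT and SCR/WT, with bars of 1 SE from limma. PCDH7 reaches 4.25 and 5.27 in the G2 comparisons, PCDH1 is at -2.43 and -1.84, and PCDH17 has the largest SCR/WT value at 2.24.

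Per kilobase of merged GENCODE exons, levels can be set side by side between genes only roughly. Counts were made on another annotation, and merged exons take in all listed transcripts of a gene. The beta genes also differ in the share of windows that match another protocadherin (5.16 to 34.5%). In G2 the order began with PCDHB6 (1424 normalized counts per kb), PCDHB14 (1350), PCDH17 (1009) and PCDHB3 (965). In WT it began with PCDHB3 (642), PCDHB14 (610), PCDHB6 (505) and PCDHB9 (453), and PCDH17 stood in place 12 at 76.5. PCDHB16 was in place 6 in G2 (717), 12 in SCR (76.9) and 8 in WT (168). PCDH7 was in place 12 in G2 (183 per kb) and in places 23 and 24 in SCR and WT, at 9.55 and 4.76. The beta genes filled most leading places in every line. PCDH7 moved most yet stayed below PCDHB9 (747 in G2, 719 in SCR). A relation between level and fold change over the members was not tested.

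Over all members, all G2 libraries were above all 5 controls for 15 of the 26 entries (22.8% of all tested entries) and below for 2, PCDHB2 and PCDH1 (19.7% of all tested entries). The 15 were the gamma entry, 7 beta genes and 7 non-clustered genes on chromosomes 4, 10 and 13. Of 48 other named entries of chromosome 5 within 1 Mb of the clusters, 40 were tested. In G2/SCR 7 of these rose and 3 fell (26.9% of all tested entries were called), and in G2/WT 7 rose and 2 fell (29.9%). In SCR/WT 0 were called by limma (16.3%). At the unadjusted p with any fold, SCR/WT had 10 higher and 7 lower in limma, with no share over all entries to set beside them. The G2/SCR count is thus near the share over all entries. The pseudogene PCDHB17P, which lies between PCDHB6 and PCDHB7, was among those that rose in both, at 394 ± 61.7 in G2 (SD, n = 3), 201 ± 44.1 in SCR and 133 ± 19.6 in WT. HBEGF, which encodes a growth factor of the EGF family, CYSTM1, the signalling inhibitor SPRY4 and SPRY4-AS1 also rose in both, while PSD2 and RELL2 fell in both. SPRY4-IT1 was called higher in both at the unadjusted p alone (limma adjusted p of 0.079 and 0.080), at means of 25.2 in G2, 5.96 in SCR and 6.95 in WT. It reached the filter only through G2. TAF7, a transcription factor subunit gene between the beta and gamma clusters, was chosen after its values were seen and was at 16085 ± 750 in G2, 15427 ± 560 in SCR and 15935 ± 478 in WT.

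**Figure D5:**
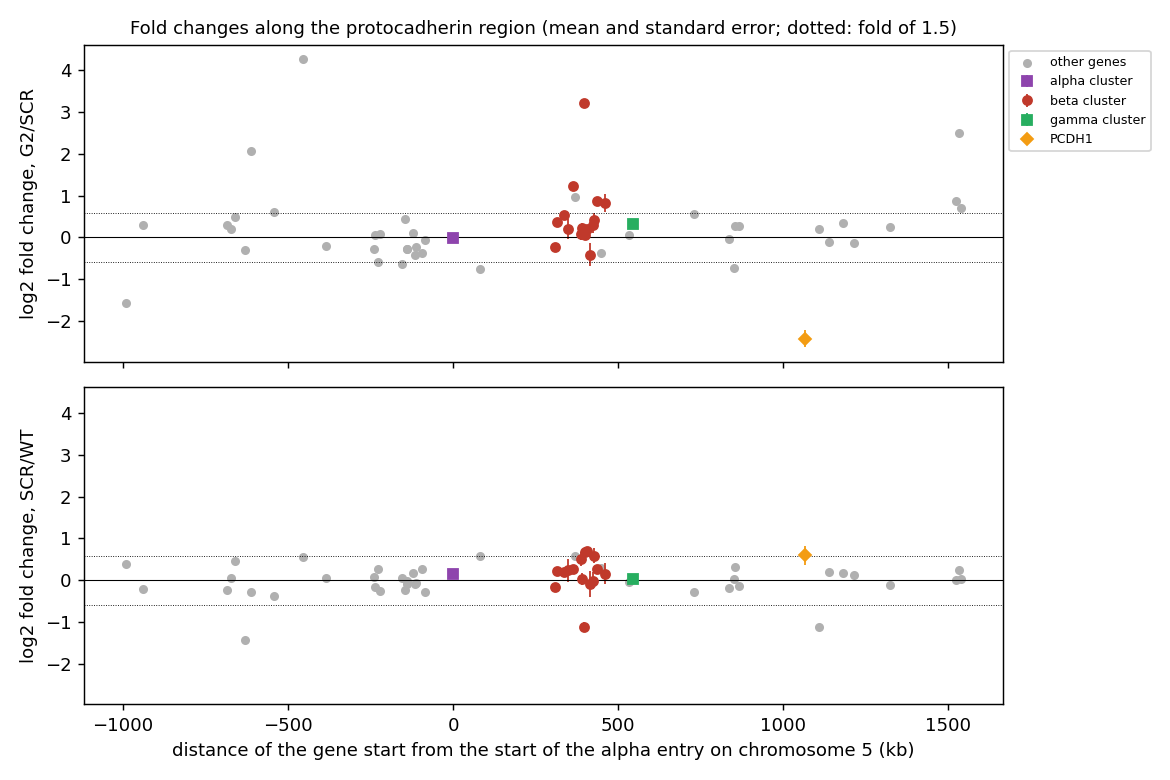
Differences on the log2 scale along chromosome 5, G2/SCR in the upper panel and SCR/WT in the lower, by distance from the start of the alpha entry (kb), for clustered protocadherins and PCDH1 (bars of 1 SE) and the other tested entries within 1 Mb (grey), with dotted lines at 1.5-fold. PCDHB16 stands above the other beta genes in G2/SCR (3.22) and below them in SCR/WT (-1.12), and PCDH1 lies at -2.43 in G2/SCR, past the gamma cluster.

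Of 26 genes listed as regulators of the clustered promoters, all were tested. In G2/SCR 2 rose and 1 fell (26.9% of all tested entries were called), in G2/WT 1 rose (29.9%), and in SCR/WT 1 was higher and 1 lower (16.3%). None was called in the same direction in both G2 comparisons. The genes, named after their values were seen, were the cohesin subunit gene RAD21 (0.89), TET1 (0.72) and LHX6 (-1.61) in G2/SCR and TET2 (0.71) in G2/WT, with LHX6 (1.52) and CTCFL (-0.77) in SCR/WT. For LHX6 it was SCR that stood high, with a mean of 96.1 normalized counts against 33.4 in G2 and 36.7 in WT. CTCF was at 4692 ± 89.9 normalized counts in G2 (SD, n = 3), 4128 ± 164 in SCR and 5191 ± 218 in WT, with log2 differences of 0.19 and -0.15. Among 21 partners that act with protocadherins at the membrane or inside the cell, 20 were tested. In G2/SCR 1 was higher and 2 lower (26.9% of all tested entries were called), and in G2/WT 2 were higher and 1 lower (29.9%). In SCR/WT 0 were called by limma (16.3%). At the unadjusted p with any fold, limma gave 8 higher and 3 lower there, with no share over all entries to set beside them. CDH2 (N-cadherin) rose in both, from 13521 ± 582 in SCR and 11340 ± 408 in WT to 49968 ± 1106 in G2, and the receptor tyrosine kinase gene RET fell in both (-0.83 and -1.07).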

How the data were processed

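RNA was sequenced as paired reads of 75 bases from 8 libraries of SH-SY5Y cells. The authors mapped reads to hg38 with STAR, counted them per gene with featureCounts (Subread 1.5.0) on the FAST DB annotation and divided by DESeq2 size factors, per the study's methods and the submitters' processing notes. What the authors deposited is a signal: normalized counts for each entry in each library, neither pooled nor scaled to length. The kit was stranded. The strand setting of the counting and its treatment of reads with several matches are not given in the sources used here. All columns were used.

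The values were 100.00% whole multiples (tolerance 0.01) of 1 step per library. The tools edgeR 4.0.16 and DESeq2 1.42.0 were run on recovered counts for G2/SCR only, so the other comparisons rest on limma. Most small counts were multiples of 3, and about 9 recovered counts stand for 3 fragments, and values at that level are not detectably different from 0.

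The design named edgeR for raw counts and limma for normalized values, so limma 3.58.1 (R 4.3.3; lmFit, eBayes with trend) was fitted on log2(value + 1) to all 8 libraries in 1 model, over 18947 entries with a mean of at least 10. The added 1 shrinks the fold changes of low genes on this scale. With scattered values the fitted fold can still exceed the ratio of means, as for PCDH8 in G2/WT (6.53 against 3.05). Adjusted p-values are Benjamini-Hochberg over all of these. Libraries were grouped by their labels. Values per library are printed for the alpha and gamma entries, for each member called in a G2 comparison and for the 3 members with the highest mean not called in either, which are the alpha and gamma entries and PCDHB2. PCDHB8, PCDH12 and PCDH19 were added after their values were seen. The members and lists were chosen with earlier results of these data known. Promoters came from RefSeq and exon lengths from GENCODE 44, matched by symbol. The fit was tested on simulated data. The alternatives were other pseudocounts, filters, thresholds, scalings and tools, a replicate block, and each library left out in turn.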

Additional observations from a re-analysis of the deposited data

How the results depend on the processing

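The number of protocadherin entries called stayed within 1.5 times of 12 (G2/SCR) and 19 (G2/WT) under every alternative run. Leaving out 1 library at a time gave 12 to 13 in G2/SCR, 16 to 19 in G2/WT and 7 to 8 in SCR/WT. A fold change of at least 2 gave 10, 13 and, in SCR/WT, 3 in place of 7. Without a filter, PCDH12 and PCDH19 were also called in G2/SCR, and DESeq2 and edgeR added PCDH8. With all libraries at the same total, the median of all tested entries moved by -0.09, 0.18 and 0.27 and the share of calls that were higher went from 56.2% to 47.5% in G2/SCR, from 59.3% to 75.7% in G2/WT and from 65.6% to 90.6% in SCR/WT, while 11, 19 and 8 members were higher and 1 lower in each comparison. Libraries with the same replicate number correlated by -0.173 to 0.147 in their deviations, and others by -0.203 to 0.173. Deviations were taken from the mean of each line, so those of the 2 WT libraries mirror each other by construction. Only the replicate numbers of the labels were compared, so whether libraries shared a day or a preparation cannot be told from this. The replicate block gave 12, 18 and 7 calls. Of 1447 single values recomputed, 1378 kept direction and call, 21 became called, 30 lost their call and 18 changed sign, none of them called. At the same total these were PCDHB7 (-0.0061) and PCDHB9 (-0.037) in G2/SCR and PCDH18 (0.14), PCDHB11 (0.18), PCDHB12 (0.26) and PCDHB2 (0.10) in SCR/WT, and with the replicate block PCDHB8 in SCR/WT (-0.033). With 1 library left out, the ranges that crossed 0 were -0.030 to 0.022 (PCDHA) and -0.054 to 0.21 (PCDHB7) in G2/SCR, and -1.69 to 3.07 (PCDH8), -0.12 to 0.063 (PCDHB12), -0.26 to 0.57 (PCDHB15), -0.020 to 0.50 (PCDHB5) and -0.11 to 0.16 (PCDHB8) in SCR/WT. The causes were not tested. WT has 2 libraries, and depth limits PCDH8, PCDH12, PCDH19 and PCDHB1.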

Other observations

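Other cadherins also differed between the lines. Of 47 entries, 25 were tested, with 12 higher and 4 lower in G2/SCR (15.1% and 11.8% of all tested entries), 11 higher and 6 lower in G2/WT (17.7% and 12.2%) and 4 higher and 5 lower in SCR/WT (10.7% and 5.63%). CELSR1, an atypical cadherin of planar cell polarity, was at 848 ± 54.2 normalized counts in G2 (SD, n = 3), 52.6 ± 5.62 in SCR and 12.7 ± 7.37 in WT (n = 2). The giant cadherin genes FAT4 (log2 differences of 2.60 and 3.05) and FAT3 (2.73 and 2.88) rose in both comparisons, as did CDH2, CDH3, CDH8, CDH11, CDH20 and CDH23. CELSR2 and CDHR1 fell in both, as did CDH15, which in G2/SCR was called at the unadjusted p alone (limma adjusted p = 0.074). CDH8 was near the detection floor in SCR and WT, at means of 5.18 and 1.86 against 83.9 ± 15.9 in G2. CDH18, called higher in G2/SCR only, was at means of 25.7 in G2, 3.40 in SCR and 8.19 in WT. Both reached the filter only through G2, so their place among the higher entries follows in part from the filter.

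CD68, a lysosomal gene listed as an immune marker, was at 703 ± 34.5 in G2, 65.3 ± 6.35 in SCR and 86.8 ± 19.1 in WT. PTPRC, the defining marker of leukocytes, had a mean of 1.07 in G2 and 0 in both control lines.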
